A study of Mus musculus with 16 samples.

Results

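The genes described here are Gfap, Vim, S100b, Aqp4, Gja1, Slc1a2, Slc1a3, Glul and Aldoc, 9 genes by which astrocytes are commonly recognised. They were taken by name: every probe that is not a control and whose gene name in the files is one of these 9, which gave 20 of the 41174 probes on the array, for 9 of its 27962 gene names. Lumbar spinal cord was measured in 4 groups of 4 mice, namely wild-type mice (NonTg in the labels) and SOD1G93A mice at 40 days of age, and the same genotypes at 80 days. All mice had the B6SJL background and, by the methods of the study, were males in a stage before symptoms. The SOD1G93A mice came from a colony with many copies of a mutant human SOD1 transgene, the mouse model of familial amyotrophic lateral sclerosis (ALS). Each array carried cord RNA of a mouse labeled with Cy3 and a reference labeled with Cy5, which was the same for all groups: a pool of neonatal heart, kidney and liver RNA of NonTg and SOD1G93A animals. The values below are log2 ratios of cord to reference, and a change is a difference between group means of these ratios.

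Astrocytes are the glial cells that tile the spinal cord. Gfap and Vim encode the intermediate filaments of their processes, and a rise of both is the usual mark of reactive astrocytes. Aqp4 is the water channel of the endfeet that astrocytes place on blood vessels, and Gja1 is connexin 43, which couples astrocytes through gap junctions. Slc1a2 (GLT-1) and Slc1a3 (GLAST) are the transporters that take up glutamate from synapses, and Glul is the enzyme that turns this glutamate into glutamine. Loss of GLT-1 is a well known feature of symptomatic ALS cord. S100b is a small calcium-binding protein, and Aldoc is the brain form of the glycolytic enzyme aldolase. None of the 9 is absolutely restricted to astrocytes: Vim is also strong in meningeal, vascular and immune cells, Glul in oligodendrocytes, and S100b in part of the oligodendrocytes and motor neurons.

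The probes are 60 bases long, and those whose position bears on the results below are shown first, as read from the deposited files, 5′ to 3′. Positions are those of the files, on the NCBI35 (mm7) mouse build. Both Slc1a2 probes lie on the plus strand of chromosome 2, at chr2:102628336-102628395 and chr2:102628431-102628490, with 35 bases between them. The first is open in 1 reading frame and lies in coding sequence. In the second, the capitals mark an in-frame stop codon, after which 9 bases follow. This end of the reading frame is that known from GLT-1b, a variant of the transporter with its own last residues, and the second probe is called the GLT-1b probe below.
Slc1a2 A_52_P168496: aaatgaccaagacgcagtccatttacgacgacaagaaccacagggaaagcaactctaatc
Slc1a2 A_51_P477875: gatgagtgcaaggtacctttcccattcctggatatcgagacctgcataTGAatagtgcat

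The S100b probe lies at chr10:75915615-75915674 on the plus strand and is shown because S100b had the smallest p-value of the 9 genes at 40 days. The capitals mark 36 bases whose codons match the pattern of a calcium-binding EF-hand loop, so this probe reads the coding part of the message.
S100b A_51_P208083: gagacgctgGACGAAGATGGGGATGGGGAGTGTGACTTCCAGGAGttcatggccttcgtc

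Of the 20 probes, 16 were well above background in the cord on all 16 arrays and were tested, at least 1 for each gene. The other 4 were 1 of Slc1a2, 2 of Slc1a3 and 1 of Vim, which were above background in the cord on 0 or 1 of the 16 arrays and are not used further. A gene with several probes is represented by the brightest, named the main probe. By its main probe, S100b stood 217-fold above the reference on average over 16 arrays (log2 ratio 7.76 ± 0.15, SD), Gfap 86.6-fold (6.44 ± 0.20), Aldoc 31.7-fold (4.99 ± 0.090), Aqp4 16.6-fold (4.05 ± 0.34), Slc1a2 11.4-fold (3.51 ± 0.17), Glul 8.34-fold (3.06 ± 0.22) and Slc1a3 3.97-fold (1.99 ± 0.17). These 7 genes were above the reference on every array after normalization within arrays. Without that step, the mean ratios of Slc1a3 and Glul were below the reference. The sizes of all ratios to the reference depend on it, so these folds are not direct measures of enrichment. For S100b, raw cord signals lay between 29872.8 and 43155.6 scanner units. Those of the reference lay between 1864 and 3073.5, so the raw signals were far less than 217-fold apart. Gja1, which heart also makes, was level with the reference (0.049 ± 0.14), and Vim was 13.7-fold below it (-3.78 ± 0.53), so on this scale neither marks neural tissue. Ratios of different probes are not compared, because each depends on its probe and on the reference.

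Among the 16 arrays, the median Cy3 signal was between 50 and 57 scanner units, and 46.0% to 55.3% of probes were well above background in Cy3. Each group held 1 of the 4 array positions on every slide and each slide held 1 array of each group, so that array position and group cannot be told apart. The spread of log ratios also differed between arrays. The slope of an array's log ratios on the mean of all 16 was 0.958 and 0.960 on wild-type 40 days replicates 2 and 3, 0.961 on wild-type 80 days replicate 3, and 1.006 to 1.015 on the 4 arrays of SOD1G93A at 40 days. On wild-type 40 days replicates 1 and 4 it was 1.009 and 1.026, the latter the highest of the 16 arrays. A lower slope means less spread of ratios over the array as a whole, which single probes need not follow. Dividing it out changes ratios far from 0 most, such as those of S100b and Gfap. The values with that slope divided out are given below, and the part of the slope in the changes was not tested. By their microglia genes, 2 arrays stood apart. The median deviation of 16 such genes from their 16-array means was 1.03 on SOD1G93A 80 days replicate 4 and 0.69 on wild-type 80 days replicate 3, against -0.28 to 0.086 on the other arrays. In whole cord, fewer cells of a type and less RNA per cell cannot be told apart.

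**Figure D1:**
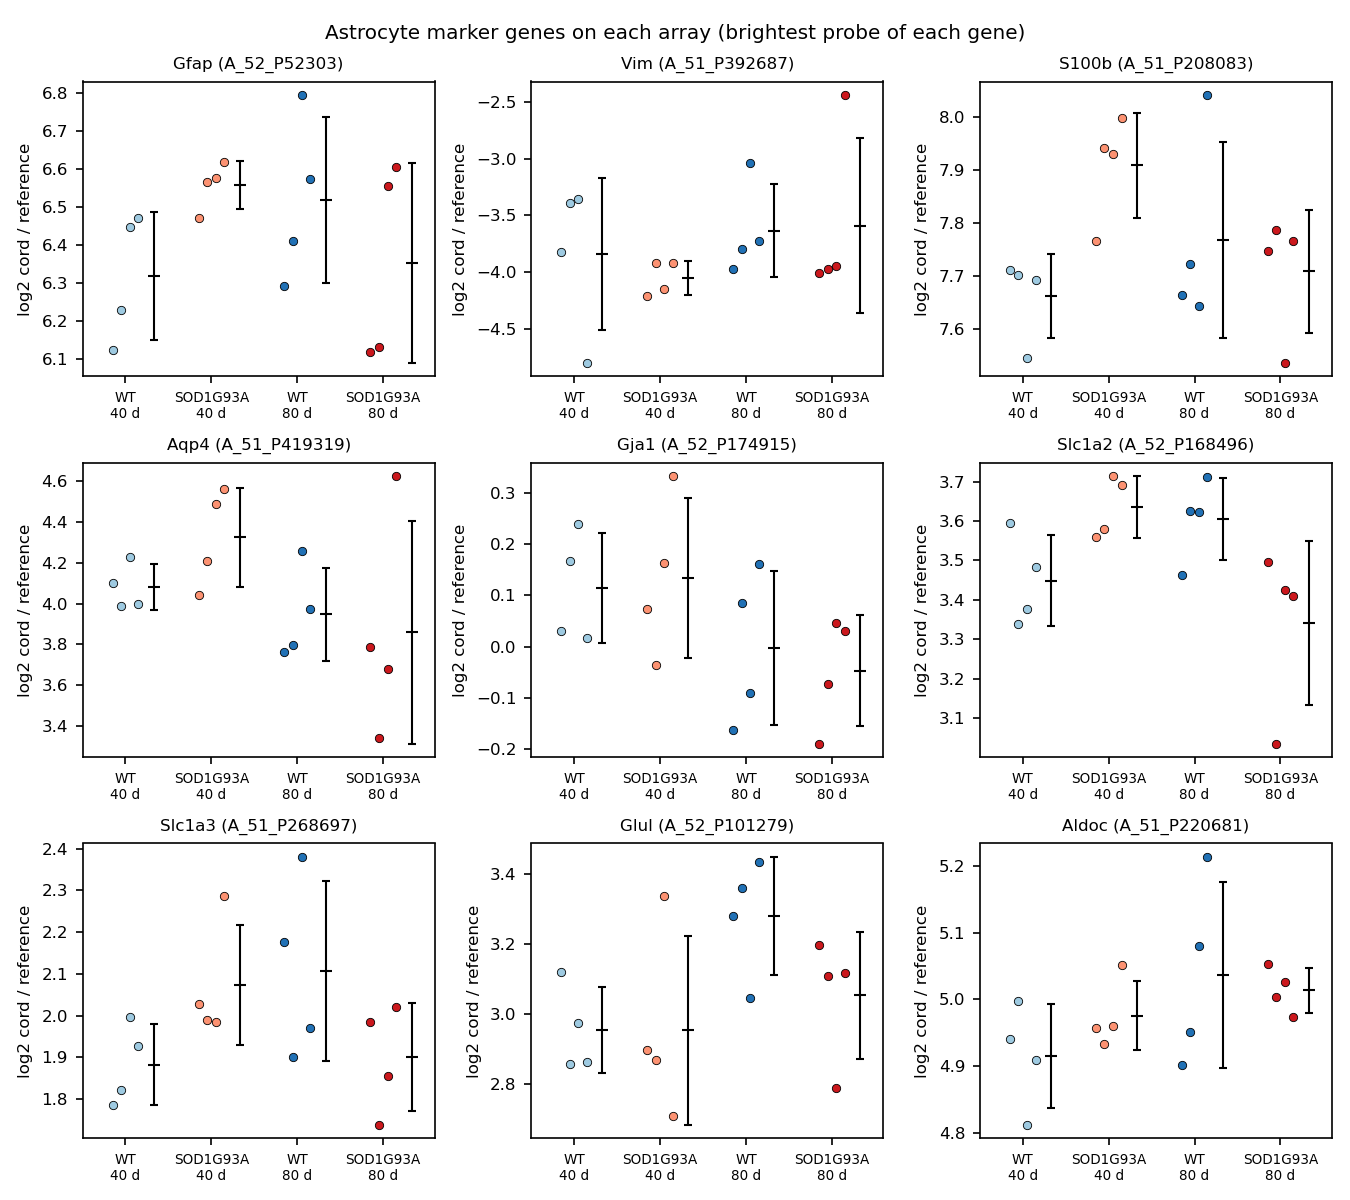
Log2 ratio of cord to reference for the main probe of each gene; each point is an array, with replicates 1 to 4 from left to right in a group, and the bar is the group mean with its SD (n = 4). S100b and Gfap of the 40-day groups do not overlap, and a single Vim point of SOD1G93A at 80 days, replicate 4, lies at -2.44.

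At 40 days, astrocyte markers were slightly higher in SOD1G93A than in wild-type cord, by about 1.14- to 1.19-fold where the test was passed. S100b, Gfap, Slc1a2, Slc1a3 and Aldoc each had a probe that rose and passed. No probe of Aqp4, Gja1, Vim or Glul passed the test, and neither did the main Aldoc probe. Of the 16 probes, 5 had an unadjusted p under 0.05 in limma's moderated test, all 5 higher, where over all 21334 probes tested 4.47% passed in either direction and 2.44% were higher. The sign was positive for 14 of the 16 probes, and the median change of the 9 main probes was 0.19, against 0.0029 over all probes. None had an adjusted p under 0.05 (Benjamini-Hochberg over all probes; smallest 0.998). Over the whole array limma gave 0 probes by adjusted p and 953 by unadjusted p.

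S100b had the clearest separation at 40 days. Its log2 ratios were 7.71, 7.70, 7.55 and 7.69 in wild-type mice and 7.77, 7.94, 7.93 and 8.0 in SOD1G93A mice. All 4 SOD1G93A arrays lay above all wild-type arrays, and the array of the transgenic mouse was the higher on each of the 4 slides, by 0.055, 0.24, 0.38 and 0.30. The change was 0.25 ± 0.066 (SE; 1.19-fold; p = 0.00419 by limma, exact permutation p = 0.0286, two-sided, which is the smallest that 4 arrays against 4 can give). Groups did not overlap for 2.83% of all probes. With the slope of each array divided out, the S100b change was 0.073, and in the Cy3 channel alone it was 0.027, and it passed in neither.

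For Gfap, the main probe gave 6.12, 6.23, 6.45 and 6.47 in wild-type mice and 6.47, 6.56, 6.58 and 6.62 in SOD1G93A mice at 40 days. These groups do not overlap either, but the highest wild-type and the lowest transgenic array are nearly level. The change was 0.24 ± 0.083 (SE; 1.18-fold; p = 0.0162 by limma, exact permutation p = 0.0286), and 0.097 with the slope divided out, which did not pass. The other Gfap probes changed by 0.19 ± 0.10 and, for A_52_P540991, by 0.25 ± 0.19 (SE), with overlapping groups. The Gfap signal was thus higher by all 3 probes and past the threshold by the main probe alone.

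Of the transporter probes, the main Slc1a2 probe and Slc1a3 rose at 40 days, and the GLT-1b probe did not pass. The main Slc1a2 probe gave 3.59, 3.34, 3.38 and 3.48 in wild-type and 3.56, 3.58, 3.71 and 3.69 in SOD1G93A mice. All wild-type arrays but replicate 1 were below all transgenic arrays. The change was 0.19 ± 0.070 (SE; 1.14-fold; p = 0.0232 by limma, exact permutation p = 0.0857). In the Cy3 channel alone it was 0.24, which passed, and with the slope divided out 0.11, which did not. The GLT-1b probe changed by 0.30 ± 0.17 (SE; exact permutation p = 0.229), with wild-type replicate 2 low at 1.74. Its reference signal was above background on 11 of 16 arrays, so that part of its ratio rests on the background. Slc1a3 changed by 0.19 ± 0.081 (SE; p = 0.0402 by limma, exact permutation p = 0.0857), of which much came from SOD1G93A replicate 4 at 2.29, where the other 3 transgenic arrays lay between 1.98 and 2.03 and the wild-type arrays between 1.78 and 2.00. Without that array the Slc1a3 change was 0.12, which did not pass, and the call was also lost without wild-type replicate 1 or 2 or SOD1G93A replicate 1. The Slc1a2 call was lost without wild-type replicate 2 or 3 or SOD1G93A replicate 3 or 4 (lowest change 0.15, p up to 0.0668). Those of S100b and Gfap held when any of the 8 arrays was left out (p up to 0.0145 and 0.0464). Of 15 other alternatives, the Gfap call passed in 7. It was lost with bright local backgrounds kept (0.23), with processed signals (0.18), without normalization within arrays (0.073), in Cy3 alone (0.22), in the matrix of the authors (0.24), and, at the same change, with all 16 arrays in the fit, besides the scalings of spread.

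The remaining genes gave a mixed picture at 40 days. Of the Aldoc probes, A_51_P425284 rose by 0.22 ± 0.081 (SE; exact permutation p = 0.0857; not past the limma threshold without wild-type replicate 2 or 3 or SOD1G93A replicate 3) but the main probe, which is the brighter, changed by 0.061 ± 0.057 (SE; exact permutation p = 0.286), and by -0.050 with the slope divided out. The 3 probes of Aqp4 changed by 0.25 ± 0.11, 0.15 ± 0.084 and 0.095 ± 0.11 (SE), short of the threshold. In the Cy3 channel alone the change of the main Aqp4 probe was 0.36, which passed. Gja1 changed by 0.019 with a 95% interval from -0.17 to 0.21, and Vim by -0.21 with an interval from -0.81 to 0.40. The Glul probes changed by -0.00063 and 0.33, and neither passed.

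**Figure D2:**
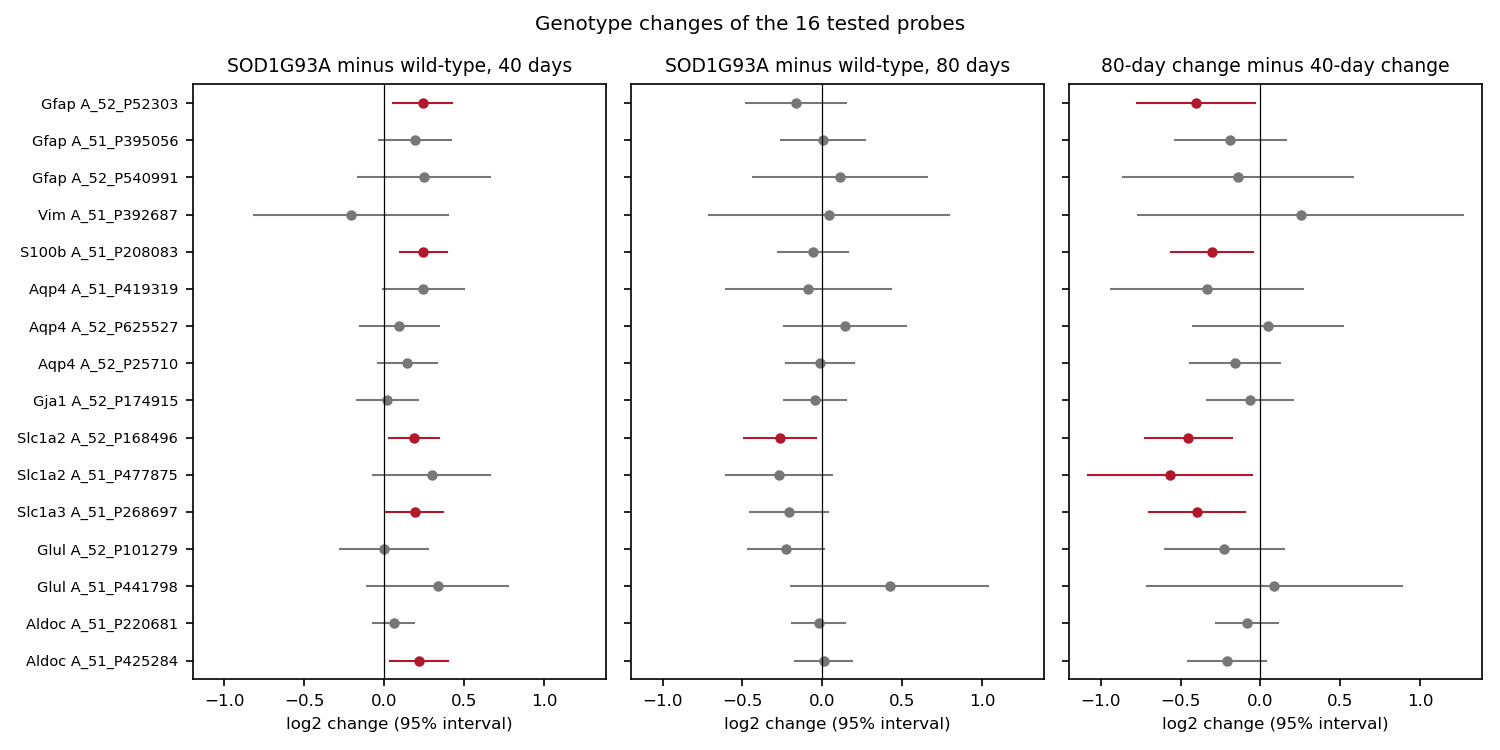
Change of each of the 16 tested probes with its 95% interval (limma), for SOD1G93A minus wild-type at 40 days, at 80 days, and for the difference between these changes; red marks an unadjusted p under 0.05. At 40 days 14 probes lie right of 0 and 5 are red, at 80 days 1 is red and lies left of 0, and all 5 red probes of the difference lie left of 0.

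The size of the 40-day change depended on how the values were made. Of the 16 probes, 5 passed as reported, 0 with the slope of each array divided out, 0 without normalization within arrays, and 2 (Aqp4 and Slc1a2) both in Cy3 alone and in the matrix that the authors deposited, which follows Cy3. The median change of the 9 main probes was 0.19 as reported and 0.073, 0.0017, 0.027 and 0.076 under these 4 settings. With all arrays brought to equal spread, 9 probes passed and the median was 0.49, but S100b and the main Gfap probe were not among the 9 (changes of 0.93 and 0.80). The median was thus above 0 under these settings, but barely so without normalization within arrays, and its size and the probes called differed. All settings rework the same arrays, so a shared sign is not independent evidence.

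**Figure D3:**
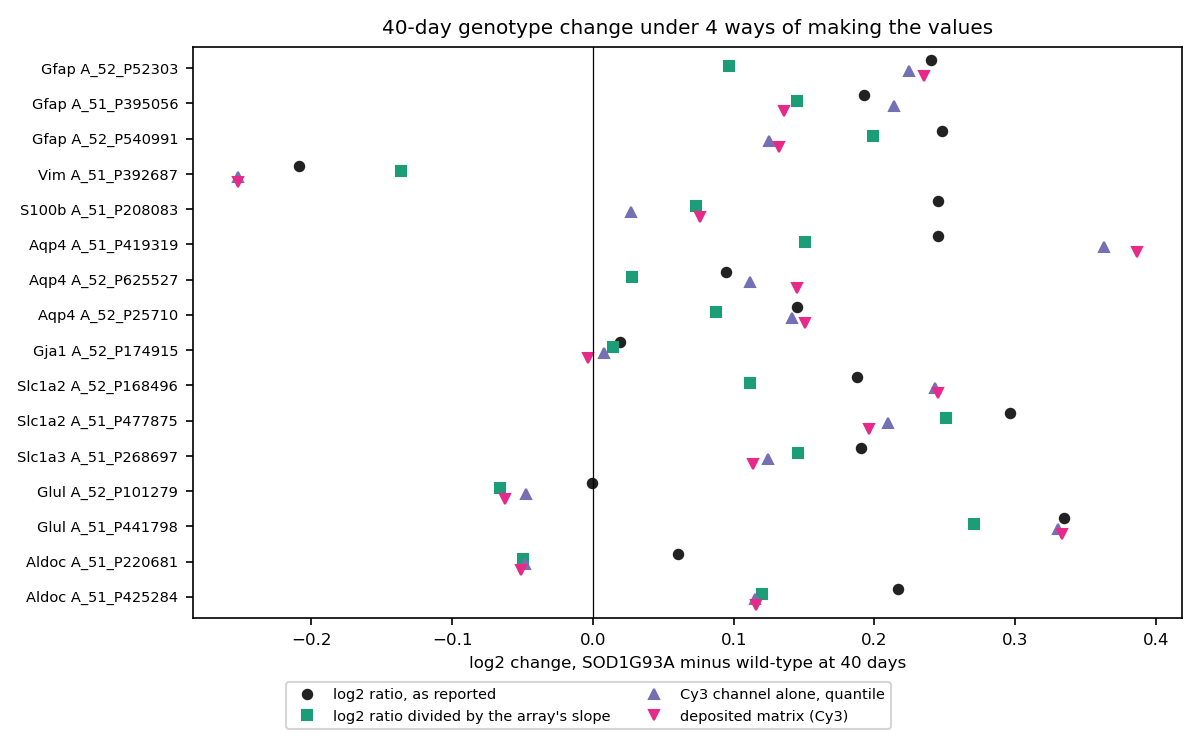
Change at 40 days (SOD1G93A minus wild-type, log2) of each tested probe under 4 ways of making the values. S100b moves from 0.25 as reported to 0.027 in the Cy3 channel alone, whereas Aqp4 A_51_P419319 and Slc1a2 A_52_P168496 are higher there than as reported.

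At 80 days the picture was not the same. The main Slc1a2 probe was lower in SOD1G93A cord, by 1.20-fold, and no other member probe passed as reported. A further probe of Slc1a2, described below, changed by 0.021 and did not pass. With the slide as a block, 3 probes passed, all lower: the main Slc1a2 probe, the GLT-1b probe and the main Glul probe. Of the 16 probes 1 passed, in the lower direction, against 6.86% of all 21600 probes in either direction and 3.12% lower, a share near that of the whole array. The main probe of 8 of the 9 genes had a negative change, with a median of -0.088 (all probes: -0.0012). The smallest adjusted p of a member was 0.708, and over the whole array limma gave 0 probes by adjusted p and 1481 by unadjusted p.

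The main Slc1a2 probe gave 3.46, 3.63, 3.62 and 3.71 in wild-type and 3.49, 3.03, 3.43 and 3.41 in SOD1G93A mice at 80 days. Transgenic replicate 2 was the lowest, and only transgenic replicate 1 was above a wild-type array. It fell by 0.26 ± 0.10 on the log2 scale (SE; p = 0.0268 by limma, exact permutation p = 0.0571). Without that lowest array the change was -0.16 and did not pass, and the call was also lost without wild-type replicate 2, 3 or 4 (p up to 0.0719). It was lost as well in Cy3 alone (-0.15), in the matrix of the authors (-0.12), without normalization within arrays (-0.15) and with processed signals (-0.33). The GLT-1b probe changed by -0.27 ± 0.15, Slc1a3 by -0.21 ± 0.11 and the main Glul probe by -0.23 ± 0.11 (SE), so these probes had the same sign at 80 days without passing (exact permutation p = 0.229, 0.200 and 0.114). The main Glul probe was lower on each of the 4 slides (differences of -0.082, -0.25, -0.26 and -0.32) and passed under 6 of 16 alternatives besides those that leave out 1 array. The second Glul probe went the other way, by 0.42 ± 0.28 (SE), with wild-type replicate 3, at 2.78, far above the other wild-type arrays at 1.19 to 1.57. Without both arrays that were high in microglia genes, the Glul probes changed by -0.33 and 0.72 and both passed: 2 probes of the same gene, opposite in sign. The main Slc1a2 probe then changed by -0.28 and did not pass.

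Filament genes, which mark reactive astrocytes, did not pass at 80 days. The 3 Gfap probes changed by -0.17, 0.0038 and 0.11, with a 95% interval of the main probe from -0.48 to 0.15. Vim was -3.97, -3.80, -3.04 and -3.72 in wild-type and -4.00, -3.97, -3.95 and -2.44 in SOD1G93A mice. In each group the array highest in microglia genes was also the highest in Vim. The Vim change was 0.044 with an interval from -0.71 to 0.79, and -0.14 (not passing) without these 2 arrays. On that transgenic array Gfap A_52_P540991, at 3.88 against 2.58 to 3.08 on the other 3, and the main Aqp4 probe, at 4.63 against 3.34 to 3.79, were also the highest of their group. This array had 63 spots with a bright local background in Cy3, the most of any array, and the part of either measure in these values was not tested. The 7 probes of S100b, Aldoc, Gja1 and Aqp4 changed by -0.088 to 0.14, and none passed.

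**Figure D4:**
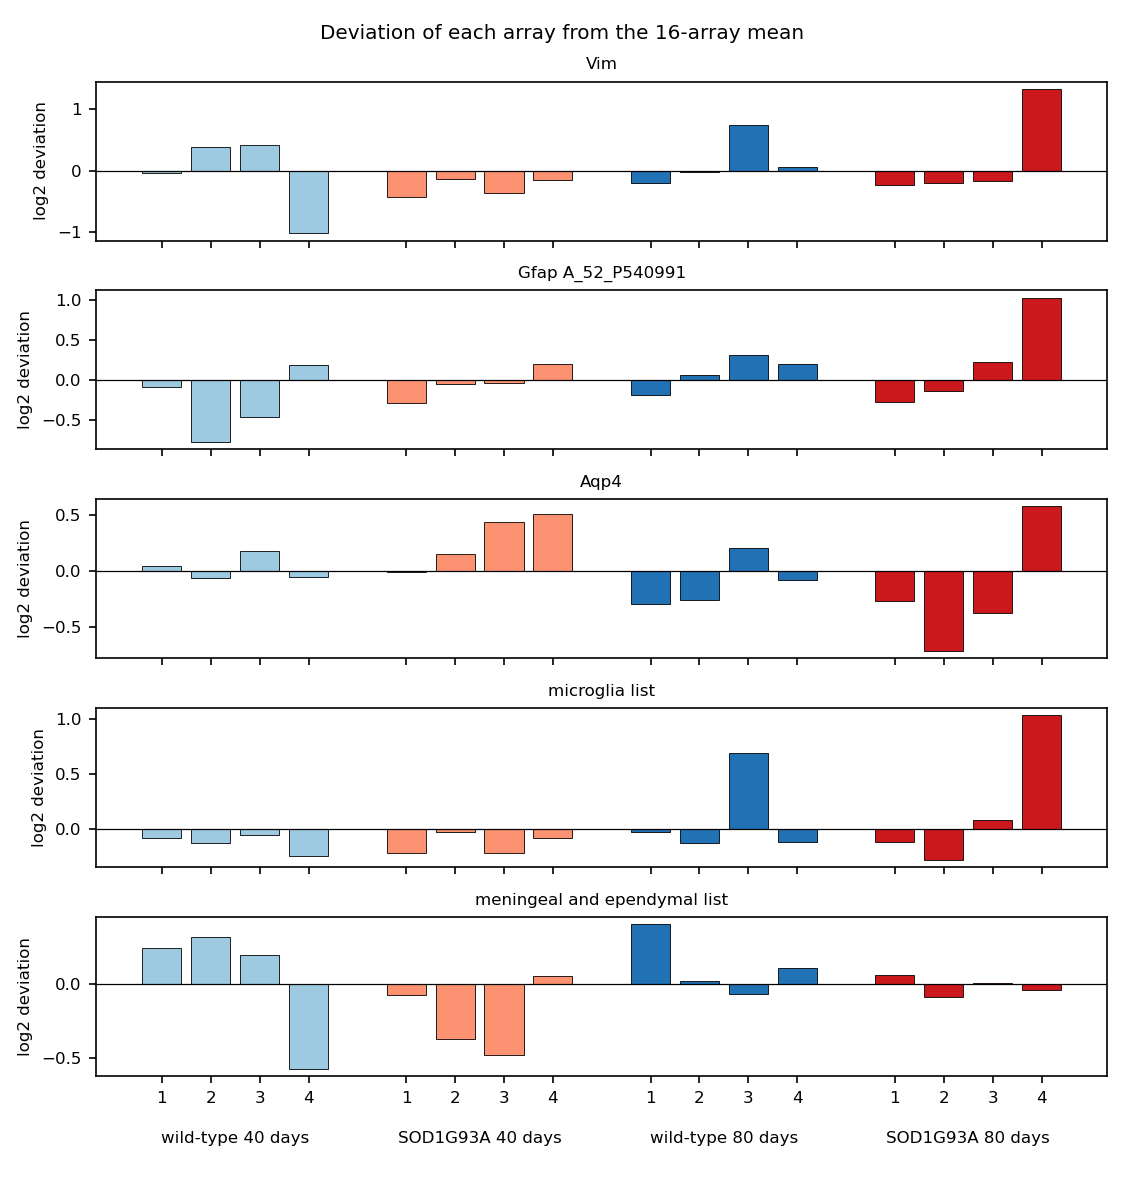
Deviation of each array from the 16-array mean (log2) for Vim, Gfap A_52_P540991 and Aqp4, and the median deviation of the microglia list and of the meningeal and ependymal list; bars are single arrays with their replicate number. SOD1G93A 80 days replicate 4 is the highest bar for Vim, Gfap A_52_P540991, Aqp4 and the microglia list. By Gfap A_52_P52303 (6.79) and A_51_P395056 (2.74), not in this figure, wild-type 80 days replicate 3 was the highest array. The lowest bar for Vim and for the meningeal and ependymal list is wild-type 40 days replicate 4.

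The difference between the ages was tested directly, as the genotype change at 80 days minus that at 40 days over 16 arrays. Here 5 of 16 probes passed, all negative, against 6.68% of 21949 probes in either direction and 3.57% negative. They were both Slc1a2 probes, Slc1a3, S100b and the main Gfap probe. By group means each was higher in transgenic mice at 40 days and lower at 80 days, but the GLT-1b probe did not pass at 40 days, and at 80 days the main Slc1a2 probe alone passed. The smallest adjusted p was 0.543. For the main Slc1a2 probe the difference was -0.45 ± 0.13 (SE; p = 0.00280 by limma, exact permutation p = 0.00245 over 4900 relabellings within ages). It passed when any array was left out (p up to 0.00717), with the slope divided out (-0.39) and in the Cy3 channel alone (-0.40), but not without normalization within arrays (-0.16) or where bright local backgrounds were kept (-0.48). The GLT-1b probe gave -0.57 ± 0.24, Slc1a3 -0.40 ± 0.14, Gfap -0.41 ± 0.17 and S100b -0.30 ± 0.12 (SE; exact permutation p = 0.0527, 0.0163, 0.0514 and 0.0363). With the slope divided out the differences of Gfap and S100b no longer passed, whereas those of the 3 transporter probes did. Of 15 alternatives besides those that leave out 1 array, the main Slc1a2 probe and Slc1a3 passed in 13 each, the GLT-1b probe in 11, S100b in 10 and Gfap in 8. Slc1a3 passed when any array was left out (p up to 0.0326). S100b was lost without wild-type 40 days or SOD1G93A 80 days replicate 3 (p up to 0.0552). Gfap was lost without replicate 1 or 2 of wild-type 40 days or SOD1G93A 80 days, or replicate 3 or 4 of SOD1G93A 40 days or wild-type 80 days (p up to 0.0800). The GLT-1b probe was lost without replicate 2 of wild-type 40 days, SOD1G93A 40 days or wild-type 80 days, replicate 4 of either group at 80 days, or replicate 1 of SOD1G93A 80 days (p up to 0.0750).

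A further probe of Slc1a2 carries an old gene name in the files (2900019G14Rik) and so was not among the 20. It was well above background on all 16 arrays, and its changes were 0.055 at 40 days, 0.021 at 80 days and -0.033 for the difference (exact permutation p = 0.543, 0.886 and 0.806). None of the 3 passed, so the probes of this gene did not give 1 answer.

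Between 40 and 80 days in wild-type cord, Slc1a3, the GLT-1b probe, the second Aldoc probe and the main Glul probe were higher as reported. 1 Aqp4 probe and the second Glul probe were lower. In wild-type mice 6 of 16 probes passed, 4 higher and 2 lower, where 15.3% of all probes passed in either direction, 6.88% higher and 8.4% lower. Aldoc A_51_P425284 was 4.57, 4.25, 4.20 and 4.41 at 40 days and 4.59, 4.60, 4.91 and 4.62 at 80 days, so that the ages did not overlap, as for 7.77% of all probes, and it rose by 0.32 ± 0.082 (SE; adjusted p = 0.0576 by limma, exact permutation p = 0.0286). The main Glul probe rose by 0.33 and the second fell by 0.63 on the log2 scale (exact permutation p = 0.0571 and 0.171). The GLT-1b probe rose by 0.40 and Slc1a3 by 0.22 (exact permutation p = 0.0571 and 0.143). Among 15 alternatives besides those that leave out 1 array, the main Glul probe passed in 14, Aldoc A_51_P425284 in 13 and Slc1a3 in 8. The GLT-1b, Aqp4 and second Glul probes passed in 11 each. Without normalization within arrays, Slc1a3 changed by 0.055 and the GLT-1b probe by 0.076, and neither passed. The Aldoc call held when any array was left out (p up to 0.00560). At 40 days, leaving out replicate 1 ended the calls of Slc1a3 and the second Glul probe, replicate 2 those 2 and the GLT-1b and Aqp4 probes, and replicate 4 that of Aqp4. At 80 days, replicate 1 ended Slc1a3, Aqp4 and the second Glul probe, replicate 2 Aqp4, GLT-1b and the second Glul probe, replicate 3 Slc1a3, Aqp4 and GLT-1b, and replicate 4 GLT-1b and both Glul probes.

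In SOD1G93A cord the probes that passed as reported went down with age. There were 4 of 16, against 17.2% of all probes in either direction, 8.43% lower and 8.77% higher: the main Slc1a2 probe, 2 of the 3 Aqp4 probes and S100b. The main Slc1a2 probe was 3.56 to 3.71 at 40 days and 3.03 to 3.49 at 80 days. Its ages did not overlap, as for 12.6% of all probes, and it fell by 0.30 on the log2 scale (p = 0.00503 by limma, adjusted p = 0.121, exact permutation p = 0.0286). The GLT-1b probe changed by -0.16 and the Slc1a2 probe under the old gene name by -0.023 (exact permutation p = 0.457 and 0.800), and neither passed. Aqp4 was lower at 80 days by all 3 probes in both genotypes. In SOD1G93A mice the changes were -0.47, -0.30 and -0.23, of which the first and the last passed, and in wild-type mice -0.13, -0.35 and -0.072, of which the second passed. Without both arrays high in microglia genes the transgenic changes of Aqp4 were -0.72, -0.49 and -0.32, all past the threshold, and 8 of the 16 probes passed. With the slide as a block, 7 passed, all lower: these 4, the third Aqp4 probe, the main Gfap probe and Gja1. In the Cy3 channel alone none of the 4 passed (Slc1a2 -0.15), while both Aldoc probes did and were higher, by 0.30 and 0.29, and Gja1 fell by 0.22 on the log2 scale. In the matrix of the authors the 4 did not pass, and both Aldoc probes did, at 0.44 and 0.29. The medians of that matrix differ between the ages, so these age values are not interpreted. The Slc1a2 call held when any array was left out (p up to 0.0203). Of the others, the main Aqp4 probe was lost without 40-day replicate 3 or 4 or 80-day replicate 1, 2 or 3, Aqp4 A_52_P25710 without 40-day replicate 4 or 80-day replicate 1, 2 or 3, and S100b without 40-day replicate 2, 3 or 4 or 80-day replicate 3. The 40-day arrays of a genotype enter both its age comparison and the genotype comparison, so these changes and those above are not independent.

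Markers of other cells moved with age too. Their counts are read against all probes, of which 15.3% passed in wild-type mice (6.88% higher, 8.4% lower). In SOD1G93A mice 17.2% of all probes passed (8.77% higher, 8.43% lower). Of 17 oligodendrocyte genes, 16 were lower at 80 days in wild-type mice (median -0.21) and 15 in SOD1G93A mice (median -0.18). In wild-type mice 8 passed, all lower, 4 of them by adjusted p (limma), which 1.63% of all probes passed. In SOD1G93A mice 7 passed, all lower, 3 of them by adjusted p, against 1.18%. The myelin genes Cldn11 and Mog fell by 0.60 and 0.70 on the log2 scale in wild-type and by 0.93 and 0.51 in SOD1G93A mice. S100b, which part of the oligodendrocytes make, changed by -0.20 in SOD1G93A mice. In wild-type mice it changed by 0.11, opposite in sign to the oligodendrocyte median, and did not pass. Microglia genes had medians of 0.22 and 0.33, with 14 and 15 of 16 higher and 2 and 3 past the threshold, and the 80-day groups hold both arrays that stood apart in them. Reactive astrocyte genes were higher for 25 of 28 in wild-type mice, where 2 passed, and for 24 of 28 in SOD1G93A mice, where 5 passed, all upward. In either direction, the microglia and reactive astrocyte shares were near or below those of all probes. Of 17 endothelial and mural genes, 6 were lower and 1 higher past the threshold in wild-type mice, and 1 was lower in SOD1G93A mice. The part of these cells in the age changes of the members was not tested.

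**Figure D5:**
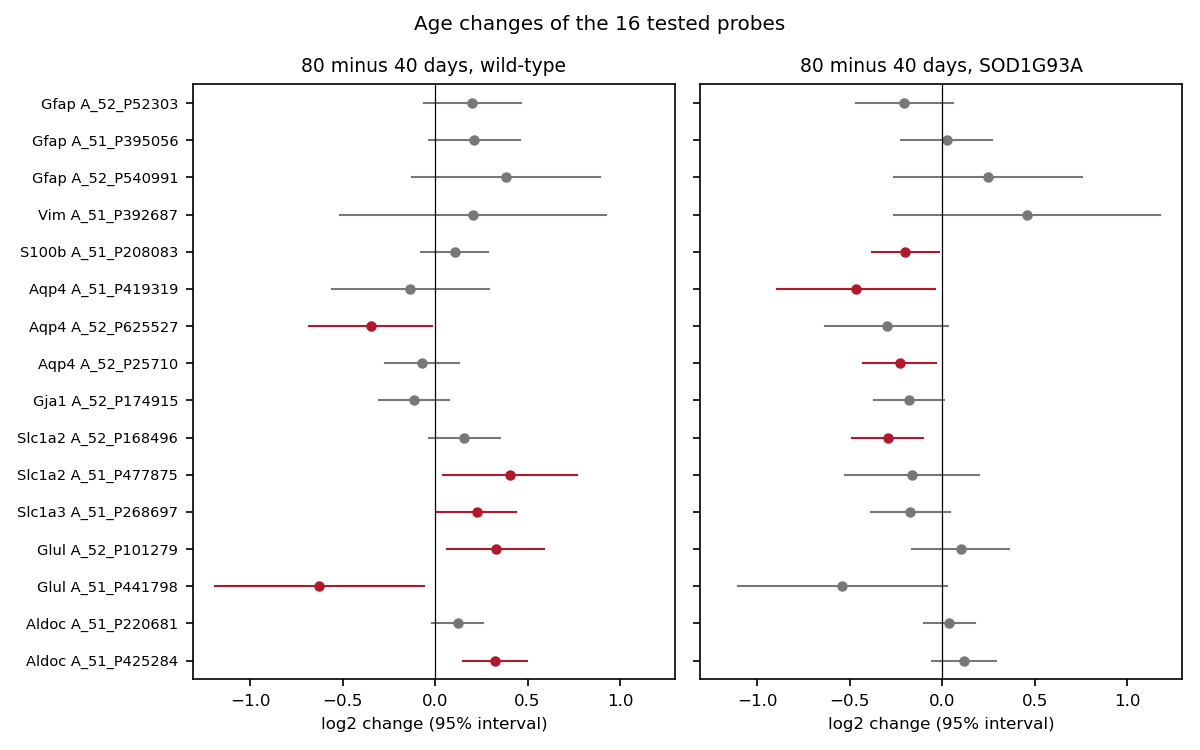
Change between 40 and 80 days (80 minus 40, log2) of each tested probe with its 95% interval (limma) in wild-type and in SOD1G93A mice; red marks an unadjusted p under 0.05. The 4 red probes of SOD1G93A mice lie left of 0, and of the 6 red probes of wild-type mice 4 lie right of it.

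Other genes of astrocytes had smaller median changes than the 9 main probes. Of 45 other astrocyte genes, 44 were tested at 40 days and 45 at 80 days, and 3 passed at each age. The shares of list genes that passed are read against 4.47% of all probes at 40 days and 6.86% at 80 days, and for this list the 80-day share was near the latter. At 40 days 2 rose and 1 fell, with a median of 0.046: Agt, angiotensinogen, rose by 0.20, Ttyh1, a membrane protein, by 0.16, and Ppp1r3c, a glycogen-targeting subunit, fell by 0.12 on the log2 scale. At 80 days 2 rose and 1 fell, with a median of 0.0080: Pygb, glycogen phosphorylase, rose by 0.27, Slc6a9, a glycine transporter, by 0.22, and the claudin Cldn10 fell by 0.44 on the log2 scale. The genes that anchor Aqp4 at endfeet had 7 of 8 tested. At 40 days none passed and all 7 were negative, with a median of -0.068, the opposite sign to Aqp4. At 80 days Dtna, dystrobrevin alpha, fell by 0.23 on the log2 scale and the median was -0.022.

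Among 12 tested genes of glutamate handling other than the members, none passed at 40 days (median -0.015). At 80 days 2 fell, both carriers of glutamine: Slc38a5 by 0.36 on the log2 scale and Slc38a1 by 0.21, with a median of -0.023 over the list. Of the 7 filament partners of Gfap and Vim, such as Nes and Synm, none passed at either age (medians -0.039 and 0.018). Of 9 connexin and pannexin genes, none passed at 40 days (median 0.00086), and at 80 days 1 passed, higher, with a median of -0.043. Of 36 reactive astrocyte genes, 27 were tested at 40 days, where Cd44 rose by 0.19 and Emp1 fell by 0.20 on the log2 scale, with a median of -0.049. At 80 days 28 were tested: the class I antigen genes H2-T23 and H2-D1 rose by 0.62 and 0.57, ceruloplasmin (Cp) fell by 0.43 on the log2 scale, and the median was 0.026. Of the reactive list, 20 of 27 were lower at 40 days and 18 of 28 higher at 80 days.

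Markers of other cells were followed beside the members. At 40 days the median change was 0.099 over 17 oligodendrocyte genes (3 passed higher and 1 lower; among them, Cldn11 and Mbp of myelin rose by 0.17 and 0.16, and Cspg4 fell by 0.18 on the log2 scale) and 0.097 over 19 neuron genes (Map2 rose by 0.15). It was -0.22 over 14 meningeal and ependymal genes, with none past the threshold, and -0.065 over 17 endothelial and mural genes, where Cspg4, which is on both lists, was the only one to pass. The meningeal and ependymal list was above its 16-array mean by 0.20 to 0.32 on wild-type replicates 1 to 3 and below it by 0.58 on wild-type replicate 4, against -0.48 to 0.055 in SOD1G93A mice, and 12 of its 14 genes on the array were above background on every array. The microglia median was 0.011 over 16 genes, with C1qc and C1qb higher by 0.35 and 0.29. Their part in the changes of the members was not tested.

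At 80 days the medians of these lists were 0.042 for oligodendrocytes (3 of 17 passed, all higher; among them, Mog and Cnp rose by 0.27 and 0.24), -0.058 for neurons (Map2 and Syt1 fell by 0.15 and 0.33 on the log2 scale), -0.11 for meningeal and ependymal genes (Ptgds fell by 0.29), 0.029 for endothelial and mural genes and 0.077 for microglia, where none of 16 passed and 14 were positive. The genotype change of Map2 and Syt1 also differed between the ages, by -0.31 and -0.43 (exact permutation p = 0.00245 and 0.0576). Over the 19 neuron genes tested, 2 passed lower and 1 higher in this difference, where 6.68% of all probes passed in either direction.

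The genes whose log2 ratios over the 16 arrays lay closest to those of a member were looked for among 12804 genes with 1 probe each, by the root mean square difference after centring each gene on its own mean. In no case was the nearest gene another member. Aldoc was nearest to Ckb, brain creatine kinase, and Atp1b2, the sodium pump subunit of astrocytes (0.0514 and 0.0515), S100b to Sv2c and Cnnm1 (0.0809 and 0.0812), Gja1 to Tmem168 and Klhl7 (0.0724 and 0.0733), Slc1a3 to Nedd4 and Mrps15 (0.0974 and 0.105), and Slc1a2 to Golgb1 and Pfdn1 (0.104 and 0.111). Gfap was nearest to Pgm5 and Capn3 (0.131 and 0.134), Glul to Ppm1k and Ovgp1 (0.137 and 0.139), Aqp4 to Rplp0 and Tmsb4x (0.187 and 0.199), and Vim to S100a6 and AU020206 (0.227 and 0.239). The closest pair of members by their main probes was S100b and Aldoc, at 0.126, where Aldoc stood at rank 214 among the genes nearest to S100b. S100b stood at rank 3668 among the genes nearest to Aldoc. The SD over 16 arrays was 0.148 for S100b and 0.0903 for Aldoc, so the difference exceeded the spread of Aldoc itself.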

How the data were processed

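The arrays were 2-colour Agilent whole mouse genome arrays. The spot intensity values were deposited as scanned by the authors with Feature Extraction 9.5.3.1 per the file headers, not normalized, and with its marks per spot. The log2 values of the deposited matrix were normalized by the authors, follow Cy3 and have other medians at 40 days (6.40) than at 80 days (6.09), so its age values are not interpreted.  Log2 ratios of Cy3 to Cy5 were made with limma 3.58.1 in R 4.3.3 (data.table version 1.17.8, statmod 1.5.0): local backgrounds over 20 units above their own spot were set to the array median, followed by normexp with an offset of 50, loess, and Aquantile. Control and outlier spots were left out and spots of a probe averaged; 18 of the 20 member probes have 1 spot. Tested probes had Cy3 well above background on 3 or more of the 4 arrays in 1 group or more, and values on 2 or more arrays in each. limma compared genotypes within an age on 8 arrays, and ages and their difference on 16, at an unadjusted p under 0.05 as in the methods, with Benjamini-Hochberg values beside it and exact two-sided permutation tests for single probes. The limma step was tested on simulated log ratios with known changes, and the steps before it were not. The labels call the samples biological replicates. The number of arrays limits the precision. Same-numbered arrays share a slide. No 2 arrays were identical (highest correlation of log2 Cy3 0.996). List genes were matched through RefSeq accessions and symbols. The 9 genes, the lists and the tests were chosen with earlier results of these data known. Every member probe is named, and from each list the genes with p under 0.05 in a genotype comparison, up to 5 per age; some genes of the lists and some probe sequences are not reported here. The alternatives are given in the closing section. Figures used matplotlib 3.10.9 in Python 3.11.15.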

Additional observations from a re-analysis of the deposited data

Results flagged for a closer look

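In 5 of 64 groups of 4 arrays, an array lay far from the other 3 by Dixon's test, which chance gives in about 1 in 20 groups. Slc1a3 was 2.29 on SOD1G93A 40 days replicate 4. S100b was 7.55 on wild-type 40 days replicate 3 and 7.54 on SOD1G93A 80 days replicate 3. Vim was -2.44 on SOD1G93A 80 days replicate 4, the array highest in microglia genes. Aldoc A_51_P425284 was 4.91 on wild-type 80 days replicate 3, the second highest in microglia genes. For 5 of 16 probes the genotype change differed between the ages by limma's test of the difference: by -0.45 for Slc1a2 A_52_P168496, -0.57 for Slc1a2 A_51_P477875, -0.40 for Slc1a3, -0.30 for S100b and -0.41 for the main Gfap probe.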

How the results depend on the processing

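As reported, 5, 1, 6, 4 and 5 of 16 probes passed for genotype at 40 days, genotype at 80 days, age in wild-type mice, age in SOD1G93A mice and genotype by age. The median changes of the 9 main probes were 0.19, -0.088, 0.16, -0.18 and -0.30. With bright local backgrounds kept, 2, 2, 0 and 1 passed for 40 days, wild-type age, SOD1G93A age and genotype by age. Without background subtraction, 2 passed at 80 days. With processed signals, 0 passed at 80 days and 2 for SOD1G93A age. Without normalization within arrays, 0, 0, 3, 0 and 0 passed, with medians of 0.0017 at 40 days, -0.046 for wild-type age, -0.066 for SOD1G93A age and -0.036 for genotype by age, and the ratios to the reference of Slc1a3 and Glul turned to -1.20 and -0.75. In the Cy3 channel alone, 2 passed at 40 days, 0 at 80 days and 3 for genotype by age, with medians of 0.027 at 40 days, 0.0028 for SOD1G93A age and -0.12 for genotype by age, and S100b turned to 0.058 for SOD1G93A age. In Cy3 alone both Aldoc probes, higher, and Gja1 passed for SOD1G93A age. In the authors' matrix, 2, 0, 2, 2 and 2 passed, with medians of 0.076 at 40 days, -0.049 for SOD1G93A age and -0.10 for genotype by age. Those 2 for SOD1G93A age were the Aldoc probes, higher, but the age values of the matrix are not interpreted. With array weights, 3 passed at 80 days and 9 for SOD1G93A age, and with all 16 arrays in the fit 2 passed at 40 days. The cause of these shifts was not tested.

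The remaining alternatives were chosen after seeing the data. With equal spread of all arrays, 9, 5, 10 and 11 passed for 40 days, 80 days, wild-type age and genotype by age, with medians of 0.49, -0.33, 0.56 and -0.80. With the slope divided out, 0, 2, 1 and 3 passed for 40 days, 80 days, SOD1G93A age and genotype by age, with medians of 0.073 at 40 days and -0.17 for genotype by age. Without both arrays high in microglia genes, 2 passed at 80 days and 8 for SOD1G93A age.

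With the replicate number as a block, 3 passed at 80 days and 7 for SOD1G93A age. Same-numbered arrays share a slide and no stated animal. Their deviations correlated by -0.067 to 0.20 between genotypes, and by 0.086 to 0.23 between the ages of SOD1G93A mice, where each array correlated best with its own number.

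Leaving out each array in turn gave 3 to 9 probes at 40 days (3 without wild-type replicate 2, 9 without wild-type replicate 4), 0 to 2 at 80 days, 3 to 7 for wild-type age, 1 to 6 for SOD1G93A age and 3 to 6 for genotype by age. The medians were 0.12 to 0.21, -0.25 to -0.072, 0.11 to 0.20, -0.21 to -0.11 and -0.35 to -0.21. Of the values of called probes under all alternatives, 1 changed sign, and those of uncalled probes changed sign in 20 of 253 cases at 40 days and 53 of 360 at 80 days.

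Over all probes, 953 passed at 40 days, against 247 with backgrounds kept, 1615 with processed signals, 559 in Cy3 alone, 537 in the matrix, 2625 with equal spread, 1881 with no filter and 1885 without wild-type replicate 4. At 80 days 1481 passed, against 2412 with no filter, 2388 with array weights and 971 without SOD1G93A replicate 3. For wild-type age 3288 passed, against 9512 in the matrix, 5577 with equal spread and 5004 with no filter, and for SOD1G93A age 3700 against 10172 in the matrix. For genotype by age 1466 passed, against 797 with backgrounds kept, 4308 without normalization, 3393 with equal spread and 2459 with no filter.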
